A study of Mus musculus with 4 samples.

Results

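In single-cell libraries of the irradiated mouse small intestinal epithelium, 6905 of 16496 barcodes (41.9%) carried more than 25% of their gene UMIs on the 13 genes of the mitochondrial genome. A UMI (unique molecular identifier) marks 1 captured transcript and a barcode marks 1 droplet. The members were chosen by that share alone, among barcodes with at least 1000 gene UMIs and at least 500 genes, and they were set against the 9591 barcodes of the same libraries at or under 25%. The KO library gave 2642 members of 6670 such barcodes (39.6%) and the WT library gave 4263 of 9826 (43.4%). Barcodes of this kind are often called damaged, but the files hold no readout of membrane integrity or cell death and the cells were sorted as live, so the set is named here by its mitochondrial share. Genes of the mitochondrial genome, written mt-, were taken out of every total and test that follows unless they are named.

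The KO group was 3 mice of the genotype VilCreIfnlr1fl/fl, in which Cre recombinase under the Villin promoter deletes the floxed gene of the interferon lambda receptor, Ifnlr1, in the intestinal epithelium. The WT group was 3 mice labelled only WT, and whether they carried Cre or a floxed allele is not stated. All 6 mice received 11 Gy of gamma irradiation from a cesium-137 source under ketamine and xylazine, with lead over head, thorax and upper extremities. Tissue was taken 96 h later per the series design and 3 days later per the protocol, and their age and sex are not stated. EPCAM-positive, CD45-negative cells were sorted, marked with 1 hashtag per mouse and pooled by genotype into 1 KO and 1 WT library, so genotype and library cannot be told apart.

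The mitochondrial genome encodes a small set of respiratory chain subunits, while the remaining subunits are made from nuclear genes. When the plasma membrane of a cell leaks, cytosolic messages can be lost while messages inside mitochondria are kept, and for this reason a high mitochondrial share is widely used as a filter in single-cell work. Absorptive enterocytes are rich in mitochondria, so that the share also differs between healthy intestinal cell types.

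The KO library held 7370 barcodes with 110960113 gene UMIs and the WT library held 10453 barcodes with 102915321. Barcodes that failed the minimums numbered 700 in the KO library and 627 in the WT library, of which 639 in the KO and 367 in the WT library were also above 25%. Of all cell barcode sequences, 28 occurred in both libraries, and 5 were above 25% in both. The 2 mice with hashtag number 2 (KO2 and WT2) stood apart among barcodes at or under 25%, where they had the most UMIs per barcode and held all crypt progenitor-like barcodes that were assigned to a mouse. Results are therefore also given without both of these mice, an alternative chosen after seeing the data. Nothing says that the mice came from separate cages or litters, and p-values measure the spread between these mice within 1 pool per genotype.

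The 3 genes that mark the set took more of all UMIs above 25%, which the rule fixes and no test was made. mt-Co1, a catalytic subunit of cytochrome c oxidase, made 7.49% of all gene UMIs above 25% and 2.05% at or under it. mt-Cytb, a subunit of the cytochrome bc1 complex, made 3.79% above 25% and 0.915% at or under it. mt-Nd1, a subunit of complex I, made 1.31% above 25% and 0.385% at or under it. All 3 were found in 100% of members. The members' median mitochondrial share was 37.1% in the KO and 36.6% in the WT library, with highest values of 88.5% in the KO and 88.2% in the WT library, and 545 KO and 708 WT barcodes were above 50%.

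The 25% line did not fall in a gap of the distribution. Between 25% and 26% lay 116 KO and 205 WT barcodes, with median non-mitochondrial UMIs of 5934.5 in KO and 5269 in WT. Between 24% and 25% lay 124 KO and 222 WT barcodes, with medians of 5867.5 in KO and 4492 in WT. Of those just inside the line, 89.7% in the KO and 69.3% in the WT library were enterocyte-like, against 94.4% in the KO and 64.4% in the WT library just outside.

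Fewer barcodes of KO mice than of WT mice lay above 25%, a difference at the limit of what 3 against 3 mice can show. Among barcodes assigned to a mouse, 35.3%, 30.1% and 37.3% were above 25% in KO mice 1 to 3, against 38.5%, 43.9% and 43.3% in WT mice 1 to 3. The genotypes did not overlap. The means were 34.2 ± 3.76% in KO and 41.9 ± 2.92% in WT mice (SD, n = 3 each), a difference of -7.66 percentage points (2-sided exact permutation test, p = 0.1, the smallest this design allows). The difference was -4.56 points without both mice of number 2 (p = 0.333, exact), and 0.373 points with the line at 50% (p = 1, exact), where the direction turned. With the line at 30%, or with the hashtag ratio rule, KO3 lay above the lowest WT mouse and the genotypes overlapped (p = 0.2 each, exact).

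**Figure D1:**
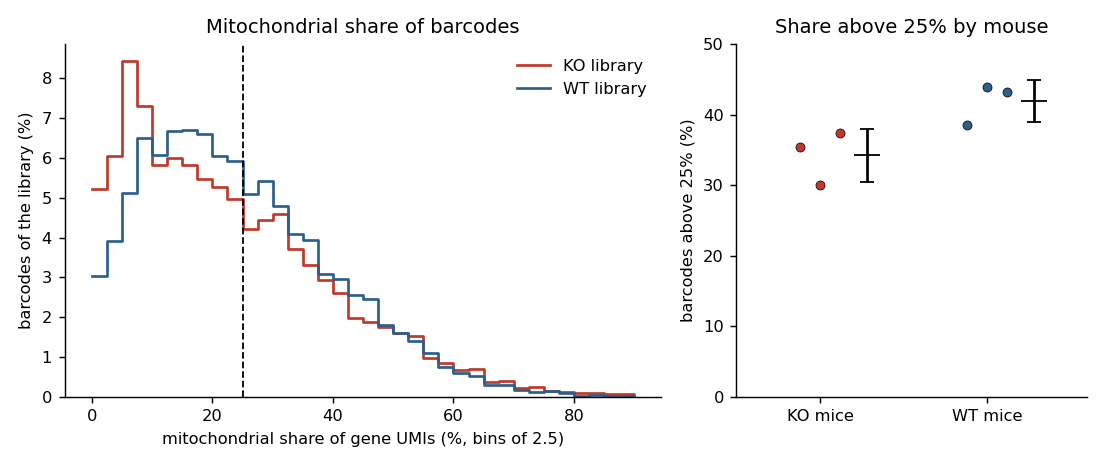
Left, the distribution of the mitochondrial share of gene UMIs over barcodes past the minimums (x axis, % in bins of 2.5; y axis, % of the barcodes of a library), with the dashed line at 25%. Right, the share of each mouse's barcodes above 25% (points), with mean and SD (n = 3 mice per genotype). The KO mice, at 30.1 to 37.3%, lie below the WT mice, at 38.5 to 43.9%.

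Members held fewer non-mitochondrial UMIs and more mitochondrial UMIs than the rest of the same mouse. Both enter the rule, so these values are a description. Median non-mitochondrial UMIs per barcode were 4202.5, 4686 and 4738 in KO mice and 4736.5, 4374.5 and 4995 in WT mice above 25%. At or under 25% they were 7915.5, 16463 and 10297 in KO mice and 7166, 10740 and 8324.5 in WT mice. The members' medians lay closer together across the 6 mice than those of the other barcodes. Median mitochondrial UMIs were 2537 to 3076.5 above 25% against 1006 to 1754 at or under it, a ratio of 1.75 to 2.92 within a mouse (geometric mean 2.27). The high share thus went with more mitochondrial UMIs as well as fewer others in all 6 mice.

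Hashtag UMIs, which come from streptavidin bound to the EPCAM antibody on the cell surface and were not used by the rule, were lower above 25% in 6 of 6 mice. The median count of a mouse's own hashtag was 998, 1174.5 and 2363 above 25% against 1793, 2051 and 5936 at or under it in KO mice 1 to 3. In WT mice 1 to 3 it was 432.5, 901.5 and 2377 above 25% against 644, 1784.5 and 3641.5 at or under it. The ratio ran from 0.398 to 0.672 (geometric mean 0.551), with p = 0.03125, the smallest 6 pairs allow (2-sided exact sign-flip permutation test). The ratio was not shown to differ between KO and WT mice (exact permutation, p = 0.3). Barcodes without a hashtag made 39.3% of KO and 46.3% of WT members, against 21.0% of the other KO and 40.4% of the other WT barcodes, so more of the KO members than of the other KO barcodes are missing from the comparisons between mice.

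Members were mostly enterocyte-like, and goblet-, Paneth- and crypt progenitor-like barcodes were rarely above 25%. Clusters were made without mt- genes and named from markers, and "-like" marks that names rest on transcripts alone. Of 11375 enterocyte-like barcodes 5677 (49.9%) were above 25%, and they made 86.9% of clustered members against 65.0% of the rest. Of goblet-like barcodes, which secrete mucus, 22 of 783 (2.81%) were above 25%. Of Paneth-like barcodes, which secrete antimicrobial peptides, it was 10 of 223 (4.48%). Of crypt progenitor-like barcodes it was 35 of 333 (10.5%), of enteroendocrine-like 26 of 131 (19.8%), and of tuft-like 11 of 54 (20.4%). The unnamed clusters, 5 in all, held 754 of 2403 (31.4%). Among these, a cluster of 1078 barcodes (995 WT) scored highest as enterocyte and had 53.6% above 25%. Another, of 488 barcodes (481 WT), scored highest as goblet and had 13.7% above 25%. The enterocyte-like and goblet-like values thus leave out these barcodes, which are mostly of the WT library.

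Within a mouse, the enterocyte-like share above 25% exceeded the goblet-like share by 41.2 points on average, in 6 of 6 mice (exact sign-flip permutation, p = 0.03125, adjusted p = 0.0625 over the classes compared). Enterocyte-like shares were 39.3%, 37.6% and 43.3% in KO mice against 46.0%, 52.5% and 47.2% in WT mice. The genotypes did not overlap, with means of 40.0 ± 2.91% in KO and 48.6 ± 3.47% in WT mice (SD, n = 3 each; exact permutation, p = 0.1, adjusted p = 0.3). Goblet-like shares were 1.6%, 2.99% and 2.92% in KO mice against 0.763%, 6.41% and 3.94% in WT mice, which overlapped.

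**Figure D2:**
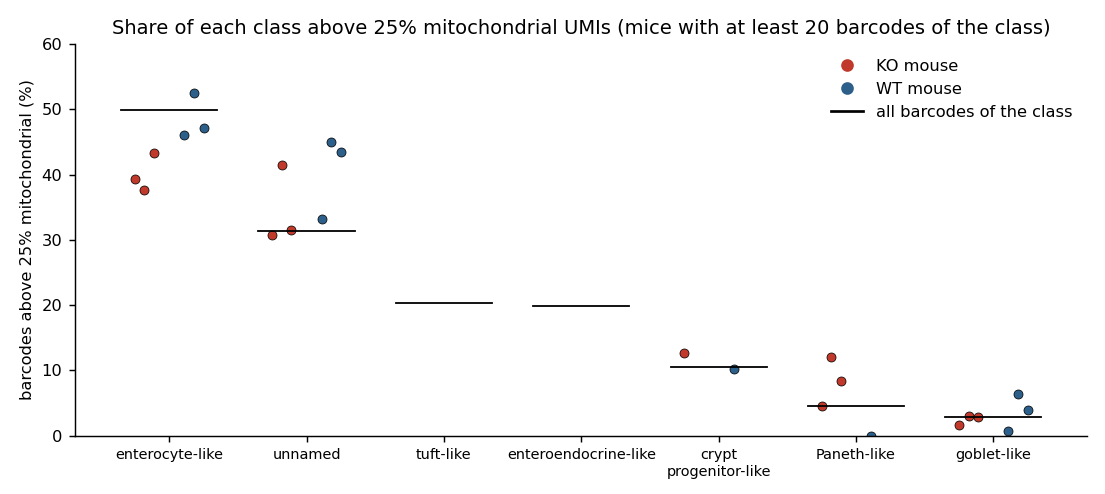
Share of barcodes above 25% mitochondrial UMIs (y axis, %) in each class (x axis), one point per mouse with at least 20 barcodes of the class, and a line for all barcodes of the class, including those without a hashtag. Enterocyte-like points lie between 37.6% and 52.5%, and goblet-like points between 0.763% and 6.41%.

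Enterocyte-like clusters differed widely among themselves, which is a description since clusters and shares come from the same barcodes. The highest share was 91.2%, in a cluster of 882 barcodes led by Akp3, a duodenal alkaline phosphatase, Tmprss15, the enteropeptidase that activates trypsin, S100g, a calcium-binding protein, Cybrd1, a ferric reductase, and Slc40a1, the iron exporter ferroportin. The lowest were 5.55%, in a cluster led by Plb1 and Duox2, and 6.04%, in a cluster led by Reg1, Gstm3 and Aldh1a1. The Reg1 cluster rested on the mice of number 2, with 156 barcodes of KO2 and 78 of WT2. KO1, KO3, WT1 and WT3 gave it 0, 2, 4 and 1 barcodes, and its median was 55764.5 gene UMIs per barcode. A cluster led by the ileal bile acid genes Fabp6 and Slc10a2 had 6.06%. KO and WT barcodes mostly lay in different enterocyte-like clusters, so that values of this class compare different clusters in part.

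Among mitochondrial UMIs themselves the share of each of the 13 genes differed across the line by at most 0.23 on the log2 scale, as a mean over the 6 mice. Single mice differed by more. The rule used only their sum, so the proportions were tested within mice, and 0 of 13 genes passed an adjusted p of 0.05 (exact sign-flip permutation). Since 6 pairs give no p under 0.03125, most of the genes would have had to reach it for any adjusted p to pass, and the count of 0 does not show that the mix was equal. mt-Atp6, a subunit of ATP synthase, made 18.5 ± 0.459% above 25% against 16.9 ± 0.618% at or under it (SD, n = 6; higher in 6 of 6 mice). mt-Co2, the subunit of cytochrome c oxidase that receives electrons from cytochrome c, made 15.9 ± 0.354% above 25% against 15.2 ± 0.491% at or under it (6 of 6). mt-Nd5, of complex I, made 1.21 ± 0.0358% above 25% against 1.3 ± 0.0518% at or under it and was lower in 6 of 6. These 3 and mt-Atp8 had the smallest exact p of 0.03125, with an adjusted p of 0.102. mt-Co1, the most abundant, made 19.7 ± 0.622% above 25% against 22.1 ± 1.82% at or under it and was lower in 5 of 6 mice (exact p = 0.0625).

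mt-Atp8, another ATP synthase subunit, made 0.175 ± 0.0119% above 25% against 0.149 ± 0.00774% at or under it (higher in 6 of 6 mice). Its reads cannot all be told from those of mt-Atp6, because the 2 genes share 43 bases of the mitochondrial genome, which are 21.1% of mt-Atp8. The shared stretch is shown since both values rest on how its reads were given to a gene. It lies on the plus strand of GRCm38, and capitals mark the start codon of mt-Atp6 and the stop codon of mt-Atp8.
mt-Atp8 and mt-Atp6 shared bases, chrM:7927-7969: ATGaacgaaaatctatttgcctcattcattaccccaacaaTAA
mt-Nd4l and mt-Nd4 also overlap on 1 strand, and their values are uncertain in the same way, while mt-Nd5 and mt-Nd6 overlap from opposite strands. mt-Nd1 made 3.45% above 25% and 4.01% at or under it, and mt-Nd2 made 3.64% above 25% and 3.34% at or under it. The mt-Nd1 difference was largest in the mice of number 2. There mt-Nd1 made 3.86% above 25% and 5.56% at or under it in KO2, and 3.5% and 4.9% in WT2. mt-Cytb made 9.75% above 25% and 9.63% at or under it, and mt-Co3 made 18.7% above 25% and 18.5% at or under it. Of the remaining complex I genes, mt-Nd4l made 1.02% above 25% and 0.911% at or under it (log2 0.18, higher in 5 of 6 mice, exact p = 0.0625), and mt-Nd4 made 6.6% above 25% and 6.64% at or under it. mt-Nd3 made 1.22% above 25% and 1.21% at or under it, and mt-Nd6 made 0.10% above 25% and 0.0958% at or under it. Among members, mt-Nd3 made 1.41 ± 0.0449% in KO mice and 1.02 ± 0.0172% in WT mice, with no overlap (SD, n = 3 each; exact permutation, p = 0.1, adjusted p = 0.217). mt-Nd4l, mt-Nd4 and mt-Nd6 were also higher, and mt-Co2 and mt-Co3 lower, in every KO than in every WT mouse, each with the same p. At or under 25% mt-Nd3 was likewise apart, at 1.36%, 1.58% and 1.38% in KO against 0.948%, 1.02% and 0.985% in WT mice. The genotypes did not overlap there for mt-Nd4l and mt-Nd4 either, so these differences were not particular to members. For mt-Nd6, mt-Co2 and mt-Co3 they overlapped there.

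The rest of the transcriptome differed widely between members and other barcodes. UMIs of all assigned barcodes were summed per mouse above and at or under 25%. The 12 sums were compared within mice by edgeR's quasi-likelihood test with Benjamini-Hochberg adjustment at 0.05. The value tested was the mean of the KO and WT differences. Of 12477 genes tested 7877 (63.1%) passed, 3413 higher (27.4%) and 4464 lower (35.8%) above 25%. In these sums, fewer cells of a type and less RNA per cell cannot be told apart, and the classes above were not evenly spread over the line. Gene values are CPM, the counts of a sum scaled to 1 common total of non-mitochondrial UMIs and by TMM within each fit, and folds are log2 of above over at or under 25%.

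The genes of the secretory lineages were lower in members. All 13 goblet genes tested were lower (median log2 -4.02, against -0.12 over all tested genes). Zg16, a goblet lectin, averaged 2591 ± 1116 CPM above 25% against 75842 ± 49252 CPM at or under it (SD, n = 6; log2 -4.72, SE 0.559, adjusted p = 1.93e-04). Muc2, the main mucin of goblet cells, changed by -4.02, Tff3, a trefoil peptide, by -4.08, and Fcgbp, a mucus protein, by -4.06, each lower with adjusted p of 3.39e-05, 7.66e-05 and 5.29e-05. All 12 Paneth genes were lower (median -4.19), led by Lyz1, lysozyme, at -4.16 (adjusted p = 1.14e-04) and the α-defensin Defa24 at -4.50 (adjusted p = 7.90e-05). α-Defensin genes are near-identical copies whose counts are uncertain singly, and among the 10 largest falls by the naming rule were Defa23 (-6.89), Gm14851 (-5.55), Gm15293, Defa36, Defa5, Defa30 and AY761184. The other large falls were Lrrc26, a channel subunit, at -4.93 (adjusted p = 4.31e-06) and Clps, a colipase, at -4.70 (adjusted p = 9.18e-06). Enteroendocrine genes were lower in 11 of 13 tested (median -3.22) and proliferation genes in 19 of 20 (median -2.39), with none higher. Of the 20 proliferation genes 12 were lower without both mice of number 2 (median -1.04).

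Summed over the list, goblet genes made 5135 ± 1422 CPM above 25% against 105547 ± 48990 CPM at or under it, and Paneth genes 1323 ± 709 CPM above 25% against 26762 ± 15977 CPM at or under it (SD, n = 6). Both sums were lower in 6 of 6 mice, with geometric mean ratios within mice of 0.0522 for goblet and 0.0519 for Paneth genes. With 30 lists compared by exact sign-flip permutation, 22 passed an adjusted p of 0.05, each with p = 0.03125. Of the lists of cells outside the epithelium, B cell genes summed to 0.366, 0 and 0 CPM in KO and 12.9, 16.7 and 17.5 CPM in WT members, T cell genes to 2.93, 0.814 and 3.96 CPM in KO and 1.43, 2.59 and 1.59 CPM in WT members, and myeloid genes to 8.42, 8.95 and 4.36 CPM in KO and 22.9, 4.89 and 3.42 CPM in WT members.

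Genes of translation and of the nuclear part of the respiratory chain were lower in members too. All 83 ribosomal protein genes tested were lower (median -2.80). Their sum was 9789.8 ± 3800.3 CPM above 25% against 70116 ± 56799.8 CPM at or under it, lower in 6 of 6 mice. Nuclear genes for respiratory chain subunits were lower in 32 of 42 and higher in 0 (median -1.11), with sums of 7781 ± 1050.0 CPM above 25% against 16608 ± 9329.6 CPM at or under it. Leaving out both mice of number 2 gave 32 lower and 3 higher (median -0.71). Nuclear messages of the respiratory chain were thus lower above than at or under the line, though they did not keep falling past it, as given by bins below. Heat shock genes were lower in 7 of 12 and higher in 0 (median -1.05), and genes of the unfolded protein response lower in 11 and higher in 2 of 16. Other response lists went the other way or both ways. Interferon-stimulated genes were higher in 28 and lower in 1 of 48 (median 0.61), and pyroptosis genes higher in 10 and lower in 4 of 21. Apoptosis genes were higher in 6 and lower in 8 of 22. Over all tested genes 27.4% were higher and 35.8% lower.

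Enterocyte genes of the upper villus and RNAs kept in the nucleus took a larger part of members. Villus tip genes were higher in 9 of 14 and lower in 0 (median 0.84), and enterocyte genes higher in 13 and lower in 2 of 20 (median 0.78). Villus tip genes numbered 4 higher without KO3 and 5 without KO2, and without both mice of number 2 they were 10 higher and 2 lower (median 0.46). The enterocyte count was 8 higher without WT1. Nuclear RNAs summed to 104386 ± 9421 CPM above 25% against 40050.4 ± 15892 CPM at or under it, higher in 6 of 6 mice. Most of that sum was Malat1, a nuclear long noncoding RNA, at log2 1.04 (SE 0.454, adjusted p = 0.0712), which did not pass (without both mice of number 2 it passed, at 0.67, adjusted p = 1.80e-04), and Gm42418, at 1.80 (SE 0.429, adjusted p = 0.00614), which did. Gm42418 and Gm26917 lie at a ribosomal RNA repeat, so their reads may stem from rRNA and are uncertain. Neat1, a nuclear RNA that builds paraspeckles, was higher at 1.15 (SE 0.278, adjusted p = 0.00643).

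The largest rises by the naming rule included Akp3 (chromosome 1 of GRCm38, 87124973 to 87127912, plus strand), at 129 ± 37.8 CPM above 25% against 11.4 ± 6.31 CPM at or under it (log2 3.64, SE 0.201, adjusted p = 1.03e-05). Tmprss15 averaged 759.7 ± 105 CPM above 25% against 103 ± 59 CPM at or under it (log2 3.15, SE 0.323, adjusted p = 1.03e-04). The other rises were Il31ra, a cytokine receptor (2.03), Slc30a10, a manganese exporter (2.01), Cttnbp2 (2.01), Slc40a1 (1.87), Lars2, a mitochondrial leucyl-tRNA synthetase (1.91), and the noncoding or unannotated Gm26917 (2.01), St8sia3os (1.96) and Gm15564 (1.94). The count of genes passing was 4748 when only barcodes above 50% were set against those at or under 25%, and 1674 of 5791 tested when each barcode was thinned to 500 non-mitochondrial UMIs.

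Along the whole range of the mitochondrial share, most of the change in composition lay below the 25% line. This was read per library, with no test, over barcodes in bins of the share. Ribosomal protein genes made 121374 CPM in KO and 103634 CPM in WT barcodes between 5% and 10%, and 9574 CPM in KO and 14529 CPM in WT barcodes between 20% and 25%. Just above the line, between 25% and 30%, they made 8692 CPM in KO and 9747 CPM in WT barcodes, close to the bin below. Above 60%, in 206 KO and 227 WT barcodes, they were higher again, at 31833 CPM in KO and 12659 CPM in WT barcodes. Nuclear respiratory chain genes made 32880 CPM in KO and 25787 CPM in WT barcodes between 5% and 10%. Between 25% and 30% they made 7222 CPM in KO and 7938 CPM in WT barcodes. Above 60% they were higher in KO, at 11134 CPM, and about level in WT, at 7560 CPM.

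Goblet genes fell off below the line as well, with 163799 CPM in KO and 263926 CPM in WT barcodes under 5%, against 3394 CPM in KO and 9317 CPM in WT barcodes between 25% and 30%. Malat1 was 7971 CPM in KO and 10645 CPM in WT barcodes under 5%, 58642 CPM in KO and 50362 CPM in WT barcodes between 15% and 20%, and 57088 CPM in KO and 54294 CPM in WT barcodes between 30% and 40%. It thus leveled off before the line. Gm42418 was higher in each bin than in the one before in both libraries, with 38693 CPM in KO and 36536 CPM in WT barcodes between 20% and 25% and 70185 CPM in KO and 79558 CPM in WT barcodes above 60%. Tmprss15 was higher past the line than before it, with 306 CPM in KO and 431 CPM in WT barcodes between 20% and 25% and 1312 CPM in KO and 1069.6 CPM in WT barcodes between 50% and 60%, and was lower again above 60%, at 1009 CPM in KO and 882 CPM in WT barcodes.

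**Figure D3:**
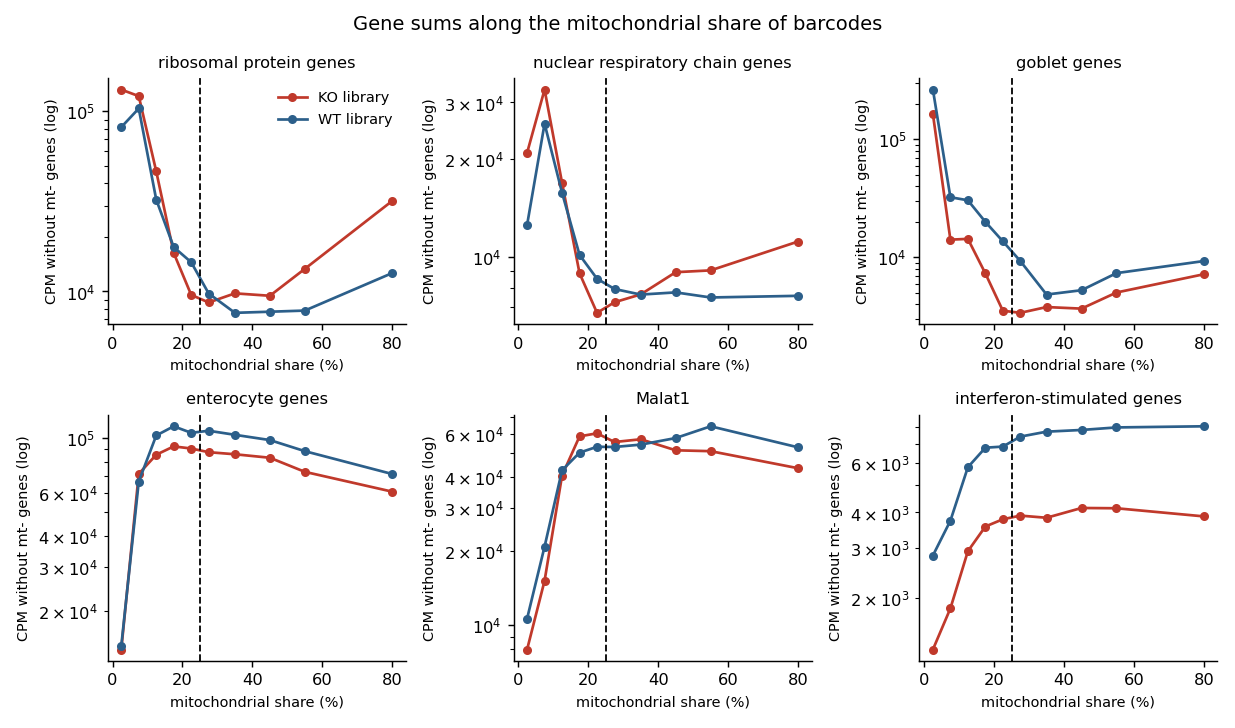
Summed CPM without mt- genes (y axis, log scale) of 5 gene lists and of Malat1 along the mitochondrial share of barcodes (x axis, %, points at bin centres), for the KO and WT libraries, with the dashed line at 25%. Ribosomal protein, respiratory chain and goblet genes drop before the line, while interferon-stimulated genes level off and stay lower in KO in each bin.

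Within enterocyte-like barcodes alone, the contrast was smaller and took a different shape. Of 10249 genes 2425 passed (23.7%), 969 higher (9.45%) and 1456 lower (14.2%) above 25%. The count ran from 793 to 1844 with 1 mouse left out, and was 1394 without KO1, 1054 without KO3, 793 without WT1 and 1422 without WT2. Without both mice of number 2 it was 3940 of 10080, with 1912 higher and 2028 lower. Calls were thus more frequent over all genes in that setting, which bears on the list counts given for it below. With all mice, the median log2 fold over all tested genes was -0.01. Upper-quartile scaling put that median at 0.10 and called 1526 genes higher and 1223 lower, so smaller folds are relative to the scaling.

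Nuclear respiratory chain genes were lower in 29 of 42 and higher in 0 (median -1.24). The count was 16 without WT1 and 19 without KO3, and without both mice of number 2 it was 30 lower and 1 higher (median -0.72). Cycs, cytochrome c, was 326, 381 and 486 CPM in KO and 445, 421 and 620.0 CPM in WT mice above 25%. At or under 25% it was 949.9, 1177 and 1294 CPM in KO and 996, 1175 and 1059 CPM in WT mice. Every mouse was lower above the line and the 2 sets did not overlap, with a log2 fold of -1.33 (SE 0.139, adjusted p = 0.00375). Cox4i1, of cytochrome c oxidase, averaged 596 ± 82.5 CPM above 25% against 1304 ± 613 CPM at or under it (log2 -1.01, SE 0.238, adjusted p = 0.025). Atp5b and Atp5d, of ATP synthase, did not pass, at -0.63 (adjusted p = 0.0965) and -0.06 (adjusted p = 0.809), and without both mice of number 2 Atp5d was 0.23 (adjusted p = 0.0173). Among other nuclear genes of mitochondria 8 of 33 were lower and 3 higher (1 and 1 without WT1, 3 and 1 without KO3, 10 and 6 of 32 without both mice of number 2), and the adenine nucleotide carrier Slc25a5 (-1.85, adjusted p = 0.00385) and malate dehydrogenase Mdh2 (-1.15, adjusted p = 0.0175) were among the lower.

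Abundant short messages translated on free ribosomes were lower in 18 of 26 and higher in 0 (median -1.29). The count was 10 without WT1 and 12 without KO3, and 25 without both mice of number 2 (median -0.82). Fabp2, the intestinal fatty acid binding protein, averaged 3399 ± 1534 CPM above 25% against 14287 ± 3286 CPM at or under it (SD, n = 6; log2 -2.14, SE 0.196, adjusted p = 0.00293). Fabp1, its liver-type relative, averaged 1096 ± 188 CPM above 25% against 7207 ± 5314 CPM at or under it (log2 -2.44, SE 0.334, adjusted p = 0.00572). Rbp2, a retinol-binding protein, changed by -0.89 (adjusted p = 0.0107), and Actb, β-actin, by -0.21 (adjusted p = 0.325), which did not pass (without both mice of number 2 it was -0.30, adjusted p = 0.00227). These carriers of dietary lipid and retinol sit in the cytosol. Genes of secreted proteins, translated at the endoplasmic reticulum, were lower in 5 and higher in 3 of 22 (median -0.23). Their sum changed by a ratio of 0.803 and was higher above 25% in 1 of 6 mice. The free-ribosome list is one of short messages, so length and place of translation cannot be told apart in it.

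Ribosomal protein genes were lower in 16 of 83 and higher in 0 (median -1.66), such as Rpl28 at -1.03 (adjusted p = 0.0315). The more abundant Rpl41, Rps12 and Rplp1 did not pass, at -0.90 (adjusted p = 0.058), -1.54 (adjusted p = 0.107) and -1.71 (adjusted p = 0.0833). Their sum was 7829, 9667 and 8619 CPM in KO and 6369.7, 7124 and 7229 CPM in WT mice above 25%. At or under it the sum was 11062, 109578 and 12438 CPM in KO and 10778, 62363 and 7850.2 CPM in WT mice. The mice of number 2 were far above the others at or under the line. The mean log2 ratio of the sums was -1.42 with all mice and -0.48 without these 2, and the count of lower genes was 75 without them (median -0.62), among them Rpl41, Rps12 and Rplp1. With 1 mouse left out that count ran from 1 (without WT1) and 2 (without KO3 or without WT2) to 23 (without WT3), being 5 without KO1 and 9 without KO2, and DESeq2 gave 56.

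Transcript length went with the direction of the difference. Genes were put into 4 groups of like size by the length of their longest annotated transcript, with 99.9% of the tested genes matched. The median log2 fold was -0.47 in the group of shortest transcripts, -0.10 in the next, 0.08 in the third and 0.20 in the longest. Of the shortest group 30.3% were lower and 5.15% higher above 25%, and of the longest 4.57% were lower and 15.1% higher.

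Villus position lists moved unevenly. Lower villus genes were lower in 7 of 10 and higher in 0 (median -2.05), and their sum was 6310.4 ± 2526 CPM above 25% against 34470.3 ± 20364 CPM at or under it. The count was 4 with KO2, KO3, WT1 or WT2 left out singly, and 8 without both mice of number 2, with a median of -1.10. Reg3b, an antimicrobial lectin, averaged 4303 ± 2269.9 CPM above 25% against 26119 ± 13137 CPM at or under it (log2 -2.63, SE 0.249, adjusted p = 0.00331), and its relative Reg3g changed by -2.90 (adjusted p = 0.00437). Plac8 (-2.11, adjusted p = 0.00535) and Lypd8, which binds flagellated bacteria (-2.23, adjusted p = 0.044), were also lower. Mid villus genes were lower in 2 of 12 and higher in 0 (median -0.10). Their sum was lower in every mouse, at 8744 ± 1339 CPM above 25% against 23466 ± 4231 CPM at or under it. The ratio of these sums was 0.375 (exact sign-flip permutation, adjusted p = 0.0586). Of villus tip genes 0 of 14 passed by edgeR's test, 4 had an unadjusted p under 0.05 and DESeq2 called 2 (median 0.22), with the apolipoprotein genes Apoa1 at -0.22 (adjusted p = 0.481) and Apoa4 at 0.19 (adjusted p = 0.595). Of these villus tip genes 4 were higher and 4 lower without both mice of number 2, the median turned to -0.07, and Apoa1 was -0.48 (adjusted p = 8.72e-05). Above 50% 3 were lower and 0 higher, and when thinned 3 were higher and 3 lower (median -0.01). General enterocyte genes were higher in 1 and lower in 3 of 20 (median 0.01), and 4 and 9 without both mice of number 2 (median -0.17).

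The largest rises within enterocyte-like barcodes were those of the duodenal phosphatase Akp3 and of Tmprss15. Akp3 was 123, 97.1 and 176 CPM in KO and 123, 112 and 187 CPM in WT mice above 25%. At or under it Akp3 was 10.5, 10.1 and 31.3 CPM in KO and 28.4, 12.2 and 29.2 CPM in WT mice. No mouse at or under the line reached the lowest mouse above it, and the log2 fold was 2.88 (SE 0.196, adjusted p = 0.00218). Tmprss15 averaged 813 ± 111 CPM above 25% against 187 ± 92.6 CPM at or under it (log2 2.31, SE 0.279, adjusted p = 0.00437). Pparg, a nuclear receptor of lipid metabolism, averaged 83.9 ± 12.2 CPM above 25% against 27.7 ± 8.61 CPM at or under it (log2 1.63). The zinc finger regulators Mecom (1.57) and Prdm16 (1.44), the bicarbonate carrier Slc4a7 (1.31), the adaptor subunit Ap1s3 (1.35), Cttnbp2 (1.71), Gm26917 (1.62) and St8sia3os (1.33) completed the 10.

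The largest fall was that of Fabp6, the ileal bile acid binding protein, at 8.6 ± 9.06 CPM above 25% against 89.9 ± 83.2 CPM at or under it (SD, n = 6; log2 -3.42, SE 0.413, adjusted p = 0.00437). The spread at or under the line was nearly as large as the mean. Plb1, a brush border phospholipase (-2.84, adjusted p = 0.00218), Saa1, serum amyloid A (-2.81, adjusted p = 0.00753), and Mrpl34, of the mitochondrial ribosome (-2.78, adjusted p = 0.00558), were lower as well. For the glutathione enzymes Mgst1 (-2.92), Gstp1 (-2.79) and Gstm3 (-2.69), the carbonic anhydrase Car4 (-2.90) and Tmem147 (-2.66), the values of KO2 and WT2 at or under 25% lay far above those of the other mice. Mgst1 there was 37.3, 575 and 56.5 CPM in KO and 31.7, 499 and 42.5 CPM in WT mice.

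Akp3 and Tmprss15 are known from the proximal and Fabp6 from the distal small intestine, and lists for both ends were drawn up after the clusters had been seen and serve as description only. Of 11 proximal uptake genes, for iron, calcium and folate, 6 were higher and 0 lower above 25% (median 0.66), and their sum was 2909.8 ± 471 CPM above 25% against 1457 ± 362 CPM at or under it. Of 8 ileal genes, for bile acids and vitamin B12, 5 were lower and 0 higher. Labels do not say from which length of the small intestine a barcode came, and a part played by position along the gut was not tested.

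Paneth and goblet genes, low in enterocyte-like sums, ran the other way there than over all barcodes. Of Paneth genes 7 of 11 were higher and 0 lower (median 0.71; 3 of 12 without WT1), with Lyz1 at 0.78 (adjusted p = 0.00933), Defa24 at 0.75 (adjusted p = 0.0111), Defa30 at 0.71 (adjusted p = 0.0189) and Itln1 at 0.69 (adjusted p = 0.0122). Their sum was 1068 ± 507 CPM above 25% against 547 ± 254 CPM at or under it, and Muc2 of goblet cells was higher by 0.51 (adjusted p = 0.041). These are UMIs of secretory genes in barcodes of an absorptive class. Free RNA in droplets was not estimated, since only called barcodes are analysed here, and its part was not tested.

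Stress and death genes within enterocyte-like barcodes passed in both directions. Over all genes tested there 14.2% were lower and 9.45% higher above 25%. Apoptosis genes were lower in 6 of 21 and higher in 0 (median -0.26), a count of 1 without WT1 and 2 without KO3 and of 10 without both mice of number 2. Genes of the unfolded protein response were lower in 4 and higher in 1 of 16 (median -0.53). Heat shock genes were lower in 1 of 11, with 10 of 11 folds below 0 (median -0.43). Pyroptosis genes were higher in 3 and lower in 2 of 20, and 3 and 8 without both mice of number 2. Sums changed by ratios of 1.03 for apoptosis, 1.01 for pyroptosis, 0.711 for heat shock and 0.797 for unfolded protein genes. The sum of immediate early genes was higher in 6 of 6 mice (ratio 1.4; exact sign-flip permutation, adjusted p = 0.0586). Gsdmd, the pore-forming protein of pyroptosis, changed by 0.20 (adjusted p = 0.455) and the nucleic acid sensor Zbp1 by -0.20 (adjusted p = 0.404). Interferon-stimulated genes were higher in 3 and lower in 2 of 47, with Isg15 at -0.24 (adjusted p = 0.357) and Ifit1 at -0.49 (adjusted p = 0.0697). Their median was 0.21, and their sum was higher above 25% in 6 of 6 mice (ratio 1.3; exact sign-flip permutation, p = 0.03125, adjusted p = 0.0586). Without both mice of number 2, 13 were higher and 11 lower, with Ifit1 at -0.68 (adjusted p = 2.43e-04), Isg15 at -0.46 (adjusted p = 2.09e-04) and Zbp1 at -0.41 (adjusted p = 0.0012). In that setting 1912 of all 10080 genes were higher and 2028 lower. Ifit1 also passed without KO2, at -0.69 (adjusted p = 0.0134). Malat1 averaged 51964 ± 8272 CPM above 25% against 44823 ± 20190 CPM at or under it, which did not pass (0.33, adjusted p = 0.309), nor did Neat1 (0.55, adjusted p = 0.104), which was 0.27 (adjusted p = 0.0258) without both mice of number 2. Gm42418 was higher in 6 of 6 mice (1.09, adjusted p = 0.0157).

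**Figure D4:**
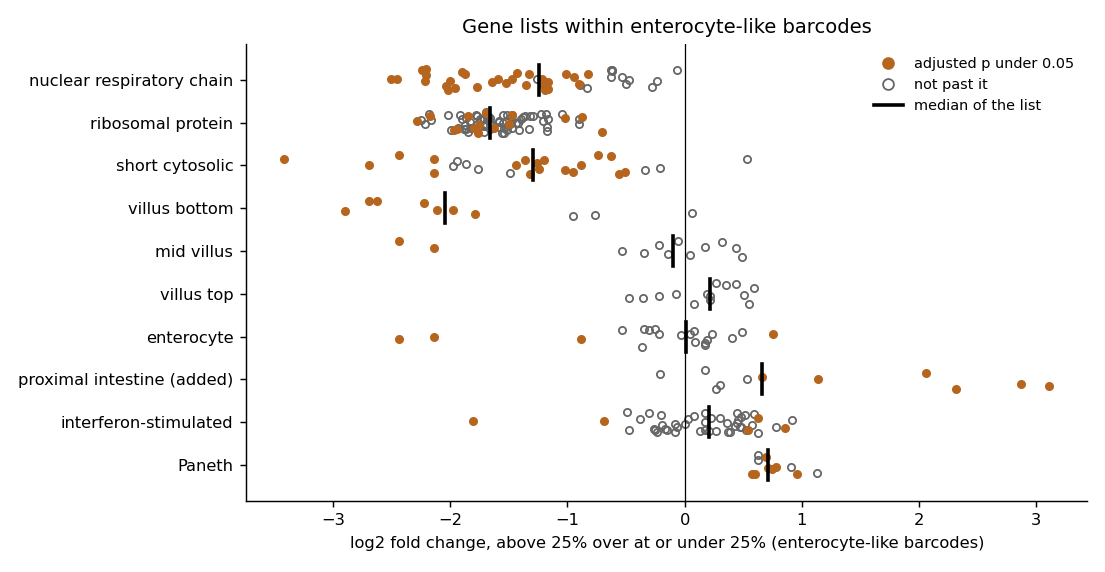
Log2 fold of each tested gene above over at or under 25% within enterocyte-like barcodes (x axis), by gene list (rows), with filled points for adjusted p under 0.05 and a bar at each list's median. Respiratory chain, ribosomal protein, short cytosolic and lower villus genes lie mostly left of 0, with medians of -1.24, -1.66, -1.29 and -2.05, and villus tip genes lie around 0.22, a median that is -0.07 without both mice of number 2.

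Nearly all interferon-stimulated genes tested were lower in KO members than in WT members. Of 9181 genes tested on the 6 sums above 25%, 538 passed (5.86%), 210 higher (2.29%) and 328 lower (3.57%) in KO mice. Of the 43 interferon-stimulated genes tested 40 were lower and 0 higher (median log2 of KO over WT -1.31, against 0.02 over all tested genes). Adar, Samd9l and Uba7 did not pass. With 1 mouse left out the count over all genes fell as low as 181 without WT3, 217 without WT1 and 219 without KO1, and that of interferon-stimulated genes ran from 34 to 42. Without both mice of number 2 the counts were 451 and 37. With the hashtag number as a block, since same-numbered mice deviated together, 1607 genes passed, 738 higher and 869 lower, and 43 of 43 interferon-stimulated genes were lower, Adar, Samd9l and Uba7 among them.

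Isg15, a ubiquitin-like modifier (chromosome 4 of GRCm38, 156199424 to 156200818, minus strand), was 114, 78.4 and 101 CPM in KO mice against 368, 465 and 527 CPM in WT mice. Ifit1, which binds foreign RNA caps, was 19.8, 11.3 and 7.42 CPM in KO mice against 94, 139.8 and 158 CPM in WT mice. Rsad2, the antiviral enzyme viperin, was 28.9, 5.1 and 5.08 CPM in KO mice against 76.3, 86.1 and 113 CPM in WT mice. In none of the 3 did the genotypes overlap. The log2 folds were -2.22 (SE 0.172, adjusted p = 7.91e-05), -3.34 (SE 0.287, adjusted p = 8.76e-05) and -2.80 (SE 0.451, adjusted p = 0.0050). With Ifit1 and Rsad2, the 10 largest falls held Rtp4 (-3.35), Usp18, which removes Isg15 from proteins (-3.12), Slfn2 (-2.77), Trim30a (-2.59) and Herc6, an Isg15 ligase in mouse (-2.58).

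The 4 most abundant genes of the list had smaller folds than its median. Ifi27l2b averaged 509 ± 30.1 CPM in KO mice against 1069.6 ± 179.8 CPM in WT mice (SD, n = 3 each; log2 -1.07, adjusted p = 0.00227), and Irf7, a transcription factor of the interferon response, 281 ± 45.1 CPM in KO mice against 556 ± 76.6 CPM in WT mice (log2 -0.98, adjusted p = 0.00386). Oasl1 changed by -0.88 (adjusted p = 0.00603) and Parp14 by -0.53 (adjusted p = 0.0256). Summed over the list, interferon-stimulated genes made 4080.3, 3629 and 3615 CPM in KO members against 6467, 8121 and 8083 CPM in WT members, a ratio of 0.50 with no overlap (exact permutation, p = 0.1).

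Promoters of Isg15 and of 3 of the genes with the 10 largest falls are shown because they hold the letters that interferon-activated factors are known to bind. Sequences are from RefSeq on GRCm38.p6, 250 bases before to 50 after the annotated start, 5′ to 3′ on the gene's strand. The core of the interferon-stimulated response element, GAAANNGAAA on either strand, is in capitals where it was found, and neighbouring matches may overlap.
Isg15, chr4:156200769-156201068, minus strand: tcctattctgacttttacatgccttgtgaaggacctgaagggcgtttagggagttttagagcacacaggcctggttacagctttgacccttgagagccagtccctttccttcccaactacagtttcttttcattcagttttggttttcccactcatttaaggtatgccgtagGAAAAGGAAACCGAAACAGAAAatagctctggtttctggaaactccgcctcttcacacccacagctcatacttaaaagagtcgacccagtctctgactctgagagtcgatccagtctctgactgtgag
Ifit1, chr19:34640639-34640938, plus strand: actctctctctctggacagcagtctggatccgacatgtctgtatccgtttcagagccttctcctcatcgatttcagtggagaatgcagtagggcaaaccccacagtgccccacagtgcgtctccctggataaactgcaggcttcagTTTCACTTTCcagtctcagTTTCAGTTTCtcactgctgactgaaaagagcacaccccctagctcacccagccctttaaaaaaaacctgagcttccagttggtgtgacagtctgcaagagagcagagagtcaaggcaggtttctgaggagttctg
Rsad2, chr12:26456403-26456702, minus strand: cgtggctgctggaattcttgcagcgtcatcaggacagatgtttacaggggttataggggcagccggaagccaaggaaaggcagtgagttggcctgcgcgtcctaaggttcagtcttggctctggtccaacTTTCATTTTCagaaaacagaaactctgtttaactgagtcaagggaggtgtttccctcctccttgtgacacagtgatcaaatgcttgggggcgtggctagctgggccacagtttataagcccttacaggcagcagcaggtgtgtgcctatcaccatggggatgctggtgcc
Trim30a, chr7:104465144-104465443, minus strand: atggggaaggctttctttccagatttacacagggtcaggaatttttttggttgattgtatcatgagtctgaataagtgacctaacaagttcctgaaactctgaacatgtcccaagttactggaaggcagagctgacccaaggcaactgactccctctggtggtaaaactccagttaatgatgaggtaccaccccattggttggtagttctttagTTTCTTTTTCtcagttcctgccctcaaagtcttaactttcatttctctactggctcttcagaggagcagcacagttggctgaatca
The Isg15 promoter held 3 overlapping matches, that of Ifit1 2, and those of Rsad2 and Trim30a 1 each. Those of Slfn2 and Herc6 held none in this window, and Rtp4 and Usp18 are named only. Of the 40 interferon-stimulated genes lower in KO members 32 had a promoter in the table, and 14 of these (43.8%) held the letters. Of all tested genes with a promoter 270 of 7287 (3.71%) held them, and of all promoters of this length 1079 of 27025 (3.99%). A match is a run of letters and not a shown binding site.

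Antigen presentation genes were lower in 10 of 20 tested and higher in 0 (median -0.59), 6 without WT3 and 13 with the block. Cd74, the invariant chain of MHC class II, was 5.05, 10.6 and 7.42 CPM in KO mice against 99.9, 320.4 and 238 CPM in WT mice (log2 -4.84, SE 0.428, adjusted p = 9.23e-05). H2-Ab1, an MHC class II chain, changed by -2.76 (adjusted p = 0.00122). The class I genes changed less, with B2m, β2-microglobulin, at -0.57 (adjusted p = 0.0237) and H2-T23 at -0.61 (adjusted p = 0.0448), while H2-K1 and H2-D1 did not pass, at -0.37 (adjusted p = 0.183) and -0.49 (adjusted p = 0.0767). With the block both passed, H2-K1 at -0.38 (adjusted p = 0.00922) and H2-D1 at -0.50 (adjusted p = 0.00106). Class II genes are also made by B cells, and Igkc, an immunoglobulin light chain, was 0 in each KO mouse against 11, 13.5 and 12.7 CPM in WT members, a gene chosen after its values were seen. Its part in the class II difference was not tested.

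Ifnlr1 itself was 54.8, 54.3 and 61.3 CPM in KO mice against 59.8, 51.4 and 53.2 CPM in WT mice, which overlapped. Which exons are floxed is not given in the labels, so that UMIs from the 3′ end do not check the deletion. Gsdmd averaged 756 ± 129 CPM in KO mice against 778 ± 26.8 CPM in WT mice (log2 -0.04, adjusted p = 0.898). Of 20 pyroptosis genes 1 was higher, Nlrp1b (1.21), and 2 were lower, Zbp1 (-1.31) and Casp4 (-0.83). Zbp1, also an interferon-stimulated gene, was 53, 54.7 and 52.3 CPM in KO against 97.6, 145 and 153 CPM in WT mice. Of nuclear respiratory chain genes 0 of 42 passed by edgeR's test, 1 had an unadjusted p under 0.05 and DESeq2 called 0 (median -0.06), and of ribosomal protein genes 2 of 83 were higher. With the block 1 respiratory chain gene was higher and 2 were lower, 36 ribosomal protein genes were higher and 1 lower, and 6 pyroptosis genes were higher and 4 lower. Malat1, at -0.14 (adjusted p = 0.794), and Neat1, at 0.17 (adjusted p = 0.613), did not pass.

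Paneth genes were higher in KO members, in 8 of 12 tested and lower in 0 (median 1.57), 5 without WT3 and 10 with the block. Defa22 was 49.8, 67.8 and 53.5 CPM in KO mice against 3.54, 4.31 and 4.49 CPM in WT mice (log2 3.76, SE 0.21, adjusted p = 8.14e-06), and Defa21 (2.90), Gm14851 (2.24) and Defa30 (2.19) were also among the 10 largest rises. The sum of Paneth genes was 1751, 2112 and 2014 CPM in KO members against 782, 648 and 630.2 CPM in WT members, without overlap. Within enterocyte-like barcodes this excess was not particular to members. At or under the line their Paneth sum was 899, 580 and 788 CPM in KO against 387, 264 and 365 CPM in WT mice. The genotypes did not overlap there, and the KO over WT ratio was 2.23, against 2.52 in enterocyte-like members. Summed over all classes at or under the line, the genotypes overlapped. Goblet genes summed to 4106, 3954 and 3964 CPM in KO members against 7398, 6215 and 5171 CPM in WT members, the opposite direction.

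Mt1, a metallothionein that binds zinc and copper, was 782, 1273 and 869.5 CPM in KO mice against 57.8, 100.2 and 134 CPM in WT mice (log2 3.31, SE 0.278, adjusted p = 8.76e-05). Cubn, the vitamin B12 receptor cubilin, changed by 1.7 (adjusted p = 0.00256), S100g by 1.47 (adjusted p = 0.00852), and Maoa, a monoamine oxidase, by 1.40 (adjusted p = 0.00971). Zmat4 (1.78) and the transcription factor Meis2 (1.52) rose too. The enteroendocrine hormone gene Cck fell (-2.82, adjusted p = 0.0128). Of the 7 enteroendocrine genes tested 1 was higher and 1 lower, and 5 folds were positive and 2 negative (median 1.31).

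Within enterocyte-like members 949 of 8783 genes passed (10.8%), 407 higher (4.63%) and 542 lower (6.17%) in KO mice, and 41 of 43 interferon-stimulated genes were lower. The count was 469 without KO1, 498 without KO2, 611 without WT3, 353 without both mice of number 2, and 1766 (790 higher, 976 lower) with the block. Upper-quartile scaling gave 507 higher and 434 lower. Rsad2 (-4.27), Ifit1 (-3.62) and Rnf213 (-2.30) were among the largest falls. The hormone gene Gip was 71.2, 73.2 and 66.4 CPM in KO mice against 4.57, 5.66 and 3.03 CPM in WT mice (log2 4.01, SE 0.199, adjusted p = 5.62e-08). Gip is known as a hormone of enteroendocrine K cells. Of the 6 enteroendocrine genes tested there 2 were higher and 3 lower in KO mice, and 4 folds were negative (median -0.84).

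Among barcodes at or under 25% the same test called no gene, and the spread between mice was larger there. By edgeR 0 of 12896 genes passed (0%), 236 fell under 0.05 before adjustment, and DESeq2 gave 36. With the block 178 passed, 42 higher and 136 lower, of which 30 were interferon-stimulated, though KO1 followed WT3 more closely than WT1 there. Isg15 was 91, 31.4 and 65.2 CPM in KO mice against 385, 164 and 518 CPM in WT mice at or under 25% (log2 -2.51, adjusted p = 0.99). With the block Isg15 passed, at -2.48 (adjusted p = 0.00503), and it passed without both mice of number 2, at -2.52 (adjusted p = 0.0456). The genotypes did not overlap there either. All 48 interferon-stimulated genes tested had a negative log2 fold (median -1.58), and their sum was 2778, 1380.4 and 2433 CPM in KO against 4489.8, 3247 and 5784 CPM in WT mice. In enterocyte-like barcodes at or under 25%, edgeR called 0 of 10555 (367 before adjustment at 0.05), DESeq2 gave 55, and the blocked fit 870, with 373 higher and 497 lower. The median SD of log2 values within a genotype was 0.215 above 25% and 0.381 at or under it.

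**Figure D5:**
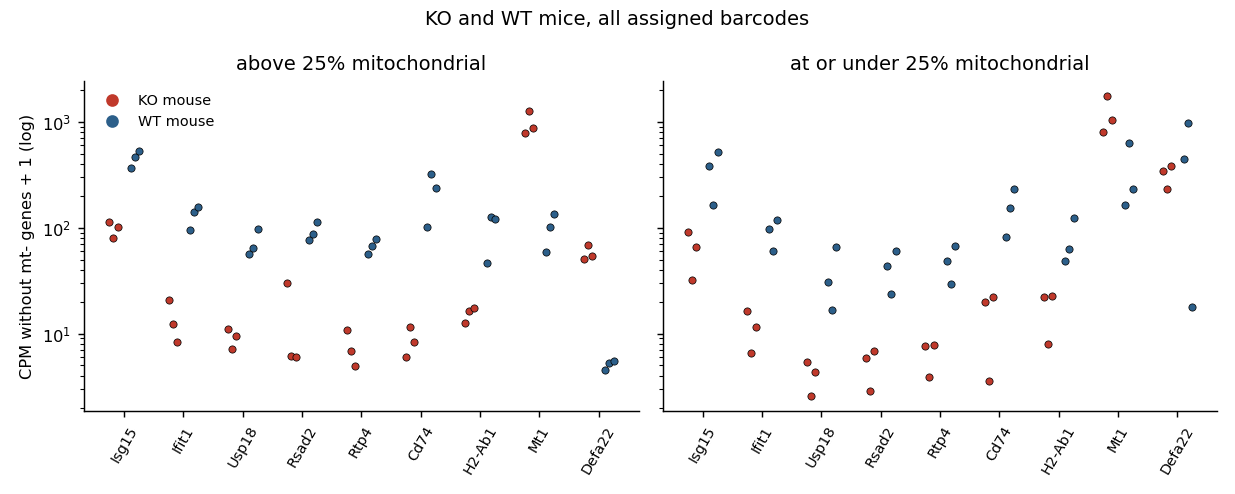
CPM without mt- genes plus 1 (y axis, log scale) of 9 genes named in the text, in KO and WT mice (points), summed over barcodes above 25% (left) and at or under 25% (right). For Isg15, Ifit1 and Cd74 the KO points lie below all WT points on both sides of the line, while Defa22 is higher in each KO mouse on the left and overlaps on the right. The sums hold all classes, Paneth-like barcodes among them.

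The test of the difference itself found no gene whose KO against WT fold differed between members and other barcodes. By edgeR's interaction test 0 of 12477 genes passed (0%), while 274 had an unadjusted p under 0.05, and DESeq2 found 0. In enterocyte-like barcodes 0 of 10249 passed (91 unadjusted), and DESeq2 found 0. The lowest p in the higher direction, not past the threshold, were those of Car8 (1.83), Defa23, Klf12, Rab3c and Rbp4, and in the lower direction those of Ccl20 (-4.68), Sdc1 (-1.14), Lgr5, Hps6 and Cstb. Without both mice of number 2, 12 genes passed, 6 each way, among them Trpv6, a calcium channel, and the hormone genes Gcg and Gip, named after their values were seen. For the interferon-stimulated sum the KO over WT ratio was 0.50 above 25% and 0.488 at or under it.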

How the data were processed

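Small intestinal epithelial cells of 3 KO and 3 WT mice were analysed from 1 droplet library of 3′ mRNA and hashtags per genotype. The deposited matrices hold raw UMI counts for 32285 genes and 3 hashtags, whole numbers without normalization, in barcodes the authors' pipeline called as cells. The submitters' processing notes name Cell Ranger 7.0.1, Seurat 4.1.0 and the build mm10, and whether intronic reads were counted is not given in the sources used here. A second experiment named in the labels was not analysed here. Gene positions and lengths are from GENCODE on GRCm38.

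Barcodes were assigned to mice with HTODemux (Seurat 5.3.0, quantile 0.99), and hashtag doublets were left out (3.94% of KO and 6.24% of WT members). Doublets of 1 mouse stay in and no doublet caller was run. This left 564, 456 and 481 members of KO mice and 520, 692 and 811 of WT mice, with 1032, 1061 and 807 and 829, 884 and 1064 other barcodes. A rule asking for a ratio of 3 between the 2 highest hashtags put 1471 of 1501 KO and 1931 of 2023 WT members with the same mouse, and 0 and 2 with another. All barcodes but hashtag doublets were clustered with scanpy 1.11.5 (2000 variable genes, 30 components, 15 neighbours, leidenalg 0.10.2 at resolution 1) without mt-, ribosomal protein, interferon-stimulated, antigen presentation and haemoglobin genes and without batch correction. Clusters were named where a marker list led by 0.15 in score, at least 3 markers reached 20 CPM and the leading genes did not go against the name.

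Counts were summed per mouse and state and tested with edgeR 4.0.16 (quasi-likelihood, TMM, filterByExpr) in R 4.3.3, with the mouse as block in comparisons within mice. List sums are CPM of non-mitochondrial UMIs without TMM. Values per mouse were compared by 2-sided exact permutation. The test was checked on simulated counts. Same-numbered KO and WT mice carried the same hashtag and deviated together from their genotype means (correlation across genes 0.199, 0.391 and 0.230 above 25%, and 0.423, 0.853 and 0.634 at or under it). Above 25% each KO mouse matched the WT mouse of its own number best. At or under 25% KO1 matched WT3 better than WT1, so a pairing by number does not hold for KO1 there. The labels state no pairing, and the blocked fits are alternatives only. Members, gene lists and tests were chosen with earlier results of these data known. Named genes were, per comparison, the 10 largest rises and falls past the threshold with the same direction in every mouse (for KO against WT, no overlap) and at least 50 CPM on the higher side, up to 4 members of each list by mean CPM, the mt- genes, Malat1, Neat1, Ifnlr1, Isg15, Ifit1, Gsdmd and Zbp1. Ribosomal protein genes were listed by symbol. Alternatives were DESeq2 1.42.0, upper-quartile scaling, no filter, other blocks, lines and hashtag rules, thinning, and each mouse left out.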

Additional observations from a re-analysis of the deposited data

How the results depend on the processing

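Depth and the number of mice limit these results: 3 against 3 mice cannot give an exact p under 0.1, and 5 pairs none under 0.0625. Intervals were not given, as mice and not UMIs are the replicates. The replicate block on the hashtag number gave 1607 genes for KO against WT above 25%, 178 at or under it, and 1766 and 870 in enterocyte-like barcodes, and gave an exact permutation p of 0.25 for the share above 25%. It also raised the counts of the gene lists for KO against WT above 25%, as given with each list. Leaving the mouse out of the model gave 6920 genes above against at or under 25% (7877 with it) and 2588 in enterocyte-like barcodes (2425 with it).

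With 1 mouse left out, counts of genes ran from 6919 to 7841 above against at or under 25%, 793 to 1844 in enterocyte-like barcodes, 181 to 476 for KO against WT above 25% and 469 to 857 in its enterocyte-like barcodes. The log2 ratio of hashtag UMIs ran from -0.92 to -0.76, the enterocyte-like minus goblet-like share from 40.2 to 42.5 points, and 0 of 30 list sums could pass. Without both mice of number 2 (chosen after seeing the data) these were -0.84 (p = 0.125), 41.6 points (p = 0.125) and 0 lists (exact tests), and the counts were 3940 in enterocyte-like barcodes, 353 for KO against WT in enterocyte-like members, 28 and 624 at or under 25%, and 12 and 2 for the interaction.

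Barcodes above 50% against those at or under 25% gave 4748 genes, and KO against WT above 50% gave 20, and 150 in enterocyte-like barcodes, with 5 for the interaction. Thinning gave 1674 genes and, in enterocyte-like barcodes, 862, with 106, 217, 4 and 12 for KO against WT above 25%, its enterocyte-like part, at or under 25%, and its enterocyte-like part. Without a filter the KO against WT counts were 1157 above 25% and 9 in enterocyte-like barcodes at or under it, with 4 for the interaction, and the hashtag ratio rule gave 886 above 25%. DESeq2 gave 36 and 55 at or under 25%. The causes were not tested, except that thinning and the 50% line leave fewer UMIs and fewer barcodes.

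Directions turned, with few calls at stake, as follows. The share above the line was 0.373 points higher in KO with the line at 50%, and 0.241 points among enterocyte-like barcodes. Among mitochondrial UMIs, log2 was -0.0134 for mt-Cytb at 20%, -0.00756 for mt-Nd3 and -0.0545 for mt-Nd6 at 50%, -0.00063 (without WT1) to 0.038 for mt-Nd3 with 1 mouse left out and 0.000941 for mt-Nd4 without both mice of number 2. Over all barcodes, Isg15 was -0.65 (adjusted p = 0.00925) above 50% and -0.33 when thinned, Ifit1 -0.16 above 50% and -0.018 without both mice, where Zbp1 was -0.10. In enterocyte-like barcodes, Gsdmd was -0.054 without both mice, and when thinned Gsdmd was -0.014, Zbp1 0.041, Malat1 -0.076 and Ifit1 0.14. For KO against WT above 25%, Gsdmd was 0.0065 with upper-quartile scaling, -0.12 to 0.086 with 1 mouse left out (highest without KO2) and 0.076 without both mice, Malat1 -0.30 to 0.011 with 1 mouse left out (highest without WT1), Ifnlr1 -0.36 above 50% and -0.26 when thinned, and Neat1 -0.14 above 50%. Upper-quartile scaling in enterocyte-like barcodes above against at or under 25% gave 1526 higher and 1223 lower genes, against 969 and 1456.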
